A study of Mus musculus with 12 samples.

Results

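The miR-181 family comprises miR-181a, miR-181b, miR-181c and miR-181d, 4 of the 1087 miRNA names whose hairpins were searched, and it comes from 6 of 1174 hairpin loci. Its members were taken by sequence alone. A sequenced tag was assigned to a member when it matched one of the member's GENCODE mouse hairpins without a mismatch from its first to its last base, and its reads were added up per arm of the hairpin and per library. A read of this kind is called a whole-match count, and a level is its percent of all whole-match miRNA counts of that library. The family was chosen by its measured share of miRNA counts in these same libraries, which was high in 1 untreated library. Its levels are therefore given as a description and support nothing. The same holds for their differences between ECS and untreated libraries and between the time courses.

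Small RNA of about 18 to 24 nt was sequenced from the hippocampus of male C57BL/6NCrl mice of 6 to 8 weeks. No engineered allele is given for the mice, which were either not treated (NT) or sampled at 1 of 5 times after electroconvulsive shock (ECS), an electrical stimulus that provokes a generalized seizure. The times were 0.5 h, 1 h, 3 h, 6 h and 24 h. Each of these 6 groups held 2 libraries, and the replicate number was that of the time course in which the library was made, so there were 12 libraries in 2 time courses of 6. They are written here by group and time course, NT-1 being the untreated library of time course 1. The libraries held 439336 to 2219779 whole-match miRNA counts in time course 1 and 1321437 to 4282006 in time course 2, which were 10.1% to 32.7% and 50.9% to 69.6% of the reads in the files.

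The numbers of the untreated libraries are in doubt. The depths that the study lists for them are close to those of the files only if the untreated libraries trade numbers, while the ECS libraries match as labelled. The numbers of the GEO labels were kept. With them, the miRNA share of reads was 29.1% in NT-1 and 56.5% in NT-2, each within the range of the ECS libraries of its time course, and the deviations of NT-1 from the mean of its group had correlations of 0.31 to 0.66 over arms with those of the ECS libraries of the same number. Statements below that the time courses did or did not overlap rest on the numbers of the GEO labels, and the tests between the time courses that passed are also given with the numbers exchanged, a setting chosen after seeing the data.

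A list of brain-enriched miRNAs (miR-124, miR-9, miR-128 and others) had all 10 of its members and 6.42% to 31.6% of the miRNA counts. Its member miR-128-3p was between 2.67% and 8.88% in every library, while miR-124a-3p varied more. In NT-1 miR-128-3p was at its lowest, with 2.67% against 7.07% in NT-2. There miR-124a-3p was at its highest, with 26.2% against 2.63% in NT-2. In whole tissue, fewer cells of a type and less RNA per cell cannot be told apart.

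miRNAs are cut from a hairpin, and 1 arm is usually loaded into the silencing complex, where bases 2 to 8 of the miRNA, the seed, pair with target mRNAs and lower their translation or stability. The members of this family share the seed of their 5′ arm, so they are expected to recognise overlapping sets of targets. miR-181a is best known for tuning T cell receptor signalling in the thymus, and in the brain the family is abundant in neurons and has been linked to glutamate receptor levels and to cell survival after ischemia. The family is usually measured by its 5′ arm, and the 3′ arm is the less abundant strand.

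The mature 5′ arms are shown from RefSeq (GRCm38.p6) because everything below turns on how far the tags follow them. The seed is in capitals.
miR-181a-5p: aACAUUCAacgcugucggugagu
miR-181b-5p: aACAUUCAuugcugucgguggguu
miR-181c-5p: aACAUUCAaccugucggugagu
miR-181d-5p: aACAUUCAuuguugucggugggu
All 4 carried the seed ACAUUCA, and no other mature mouse miRNA of that table did. Counted from 1 at the 5′ end, miR-181b differed from miR-181a at 3 of 23 bases (A9U, C10U and A21G), and miR-181d differed from miR-181b at 1 base (C12U). A tag of 18 nt was therefore long enough to tell these members apart.

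The 3′ arms are shown because, unlike the 5′ arms, they separate the duplicated loci.
miR-181a-1-3p: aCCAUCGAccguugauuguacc
miR-181a-2-3p: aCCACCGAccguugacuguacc
miR-181b-1-3p: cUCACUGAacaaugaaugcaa
miR-181b-2-3p: cUCACUGAucaaugaaugcaaa
miR-181c-3p: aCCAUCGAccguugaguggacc
miR-181d-3p: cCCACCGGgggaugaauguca
The 2 miR-181a forms differed at 2 bases (U5C and U16C), and the first of these lies in the seed. The 2 miR-181b forms differed at 1 of 21 bases (A9U), outside the seed.

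The 6 hairpins lie in 3 pairs (GRCm38, GENCODE M21). Mir181a-1 (chr1:137966455-137966541) and Mir181b-1 (chr1:137966639-137966718) lie on the plus strand, 97 bp apart, in an intron of the noncoding gene Gm4258, and Mir181b-1 also overlaps an exon of the lincRNA A430106G13Rik. Mir181a-2 (chr2:38852735-38852810) and Mir181b-2 (chr2:38853830-38853918) are 1019 bp apart on the plus strand, within an intron of Nr6a1, a nuclear receptor gene on the opposite strand, and Mir181b-2 also overlaps an exon of the annotated transcript Gm44144 on that strand. Mir181c (chr8:84178873-84178961) and Mir181d (chr8:84178716-84178787) are 85 bp apart on the minus strand, within an intron of Nanos3, a germ cell gene annotated on the same strand. None of the family's tags matched a miRNA of another name.

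The family held 160221 whole-match counts in the 12 libraries. Of these, 50.5% came from the 5′ arm of miR-181a, 36.6% from that of miR-181b, 6.36% from that of miR-181d and 0.565% from that of miR-181c. The 3′ arm of miR-181a held 4.42%, that of miR-181b 1.30% and that of miR-181c 0.205%. NT-1 carried much of this: without it the 5′ arms of miR-181a and miR-181b held 59.9% and 23.4% of 89357 counts. The 3′ arm of miR-181d was read 1 time in all, so 7 of the 8 arms passed the filter used for testing (at least 10 counts in at least 2 libraries). In the 11 libraries without a count of it, a count of 0 allows a share of up to 7.01e-05% in the deepest and 0.000683% in the shallowest. These limits and the intervals below cover counting error only.

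For miR-181a, the 5′ arm made up 2.57% of miRNA counts in NT-1 (95% Wilson interval 2.54 to 2.60), and in time order 0.0884%, 0.459%, 0.197%, 0.346% and 0.0997% in the 5 ECS libraries of that time course. In time course 2 it was 0.197% in NT-2 (0.193 to 0.201), and 0.224%, 0.169%, 0.130%, 0.0706% and 0.216% after ECS. NT-1 thus stood 5.61-fold above the next library of its time course and 13.1-fold above NT-2, while the other 11 libraries overlapped between the time courses.

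For miR-181b, the 5′ arm stood at 3.54% in NT-1 (3.50 to 3.57), and at 0.0792%, 0.267%, 0.132%, 0.238% and 0.0761% after ECS in time course 1. The values of time course 2 were 0.0757% in NT-2 (0.0732 to 0.0784), then 0.0456%, 0.0486%, 0.0368%, 0.0344% and 0.0548%. NT-1 was 13.2-fold above the next library of its time course and 46.7-fold above NT-2. Every library of time course 1 exceeded every library of time course 2, by the narrowest margin between 24 h in time course 1 and NT-2.

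For miR-181d, the 5′ arm was 0.288% in NT-1 and between 0.0167% and 0.0671% in the other libraries of time course 1, against 0.0103% to 0.0317% in time course 2. The 5′ arm of miR-181c was the rarest. It had 62 to 229 counts per library in time course 1 (0.00486% to 0.0200%) and 2 to 41 counts in time course 2 (0.000151% to 0.00105%), and the time courses did not overlap. In NT-1 the 5′ arm of miR-181b was the 5th and that of miR-181a the 9th most abundant arm of the library, and in the other libraries they ranked 40 to 91.

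**Figure D1:**
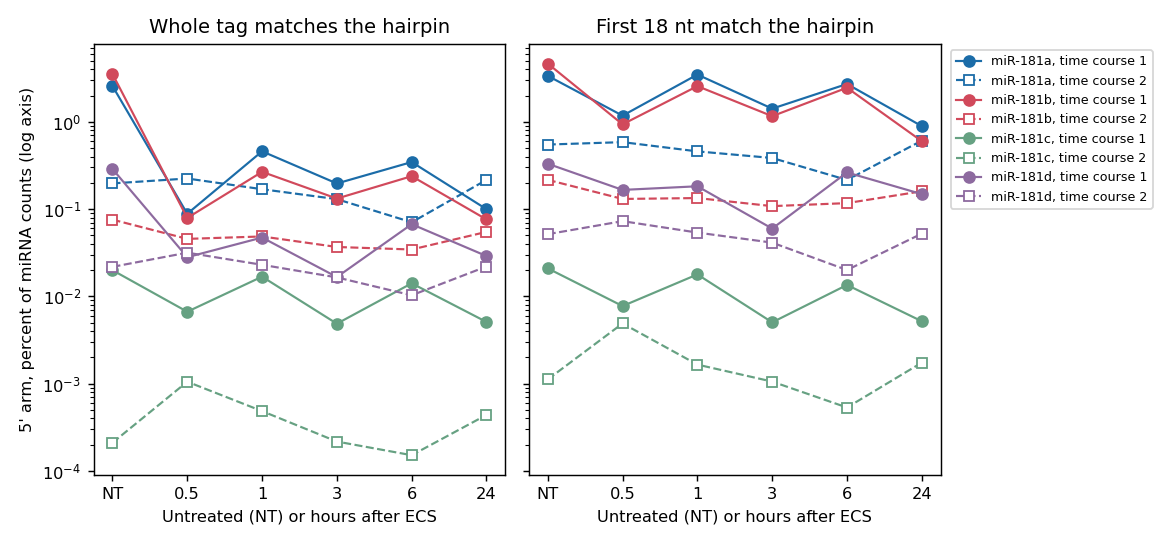
Percent of miRNA counts on a log axis for the 5′ arms of the 4 members in each library, by time after ECS, for tags that match the hairpin over their whole length (left) and for tags matched by their first 18 nt (right). On the left NT-1 stands apart for miR-181a (2.57%) and miR-181b (3.54%), and on the right the filled points of time course 1 lie above the open points of time course 2 for each member at every time point.

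Matching by the first 18 nt changed these levels. It takes a tag when its first 18 bases match a hairpin and lets the rest differ, and it gave the family 571768 counts. The whole family then made up 8.59% of miRNA counts in NT-1, and in time order 2.35%, 6.33%, 2.75%, 5.52% and 1.69% after ECS in time course 1. In time course 2 it made up 0.838% in NT-2, then 0.807%, 0.671%, 0.552%, 0.363% and 0.832%. The mean was 4.54% ± 2.71 (SD, n = 6) in time course 1 and 0.677% ± 0.190 (SD, n = 6) in time course 2, and the ranges did not overlap. By whole matches the means were 1.53% ± 2.51 (SD, n = 6) and 0.250% ± 0.0763 (SD, n = 6), and the ranges overlapped.

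Under this matching NT-1 no longer stood apart for miR-181a, with 3.36% against 3.48% at 1 h and 2.71% at 6 h of time course 1. For miR-181b it was 4.65% against 2.56% at 1 h, a ratio of 1.81 where the whole-match ratio had been 13.2. With the first 18 nt the 5′ arm of miR-181a ranked 6 to 22 in the libraries of time course 1 and 24 to 38 in those of time course 2.

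Few tags of the 3 main 5′ arms followed the hairpin to their last base. Of the tags found by their first 18 nt, 25.5% of those of miR-181a, 28.2% of those of miR-181b and 33.3% of those of miR-181d were whole matches. They were the 3 lowest of the 126 arms with at least 10000 such counts. The other 123 arms had a median of 82.4%, and the lowest of them, miR-1224-5p, had 50.4%. The 3 arms were also the lowest within each time course, where the lowest of the others stood at 61.9% in time course 1 and 38.2% in time course 2. These shares were looked at after the levels had been seen, and they are a description.

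**Figure D2:**
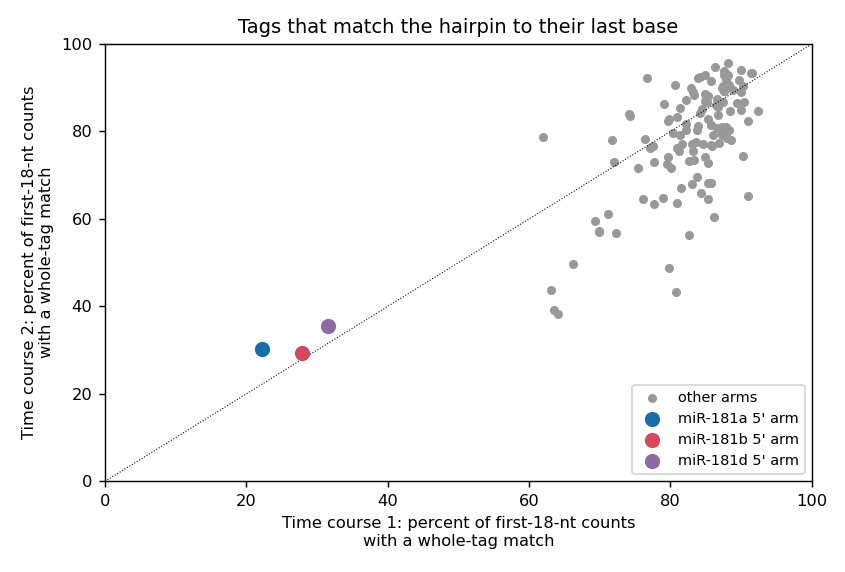
Percent of the tags matched by their first 18 nt that match the hairpin over the whole tag, time course 1 (x axis) against time course 2 (y axis), 1 point per arm with at least 10000 such counts. The 5′ arms of miR-181a, miR-181b and miR-181d lie at the lower left, at 22.2% to 31.5% in time course 1, away from the 123 other arms.

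NT-1 was the exception among the libraries here. The whole-match count by which the family was chosen enters the shares below, so they are a description. For miR-181a the share of first-18-nt counts without a whole match was 31.9% in NT-1, 88.3% to 93.7% in the other libraries of time course 1, and 68.8% to 71.6% in time course 2. For miR-181b it was 32.3% in NT-1, 89.5% to 92.9% in the others of time course 1, and 69.4% to 74.1% in time course 2. The 3 sets of libraries did not overlap for either member. For miR-181d the shares were 22.4%, 76.6% to 85.9%, and 54.8% to 66.4%.

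Part of the departure from the hairpin lay in bases 19 and 20. Among tags long enough to hold base 19, it matched in 61.4% for miR-181a, 71.1% for miR-181b and 78.3% for miR-181d. Among those of 20 nt or more, base 20 matched in 45.2%, 23.5% and 49.5%. The medians of the other 123 arms were 97.7% and 96.7%. Tags also departed later. For miR-181d in time course 2, base 20 matched in 68.8% of the tags of 20 nt or more. Of all its tags found by the first 18 nt there, only 35.6% were whole matches, and 38.3% were of 24 nt or more. Over all libraries the most abundant tags found by the first 18 nt are shown in DNA letters as in the files, with bases that differ from the hairpin in capitals.
miR-181a, rank 1: aacattcaacgctgtcggtT
miR-181a, rank 2: aacattcaacgctgtcggtg
miR-181a, rank 3: aacattcaacgctgtcggt
miR-181b, rank 1: aacattcattgctgtcggtT
miR-181b, rank 2: aacattcattgctgtcggt
miR-181b, rank 3: aacattcattgctgtcggtg
The tag of 20 nt that ends in an unmatched T held 59157 counts of miR-181a, 18.6% of those found by the first 18 nt, and 67771 counts of miR-181b, 32.5%. The fully matching tag of 20 nt had 50165 and 19072 counts.

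The last bases of the 20-nt tags differed between the time courses. Of 104827 miR-181a tags of 20 nt in the 5 ECS libraries of time course 1, 12.9% ended in the hairpin's TG, 38.5% in TT, 14.7% in CT and 10.4% in GT. Of 77206 in time course 2, 43.3% ended in TG, 15.7% in TT, 2.64% in CT and 8.51% in GT. For miR-181b, TG was 7.66% and TT 51.9% in the ECS libraries of time course 1, and 37.6% and 30.8% in time course 2. For miR-181d, TT was 43.1% in the former and 19.6% in the latter. For each of the 3 members the share ending in TG was lower in every library of time course 1 than in any library of time course 2. NT-1 gave 25.9% TG and 54.2% TT for miR-181a, where the lowest TG share of time course 2 was 33.7%, in the 6 h library.

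Whole matches of the 5′ arms were shorter than the annotated miRNA. Tags that depart from the hairpin before their last base are not among them, so these lengths hold for that subset only. With the first 18 nt, tags of 24 nt or more were 16.1% of miR-181a, 7.18% of miR-181b and 22.6% of miR-181d 5′ arm counts. The annotated form of 23 nt had 89 of 80957 counts for miR-181a, the form of 24 nt 1 of 58662 for miR-181b, the form of 22 nt 49 of 905 for miR-181c and the form of 23 nt 57 of 10194 for miR-181d. The most abundant whole-match tag of miR-181a was the one of 20 nt, with 62.0% of counts, and the next was the 19-nt tag shown above, with 30.1%. For miR-181b the order was reversed, with 62.5% in the 19-nt tag and 32.5% in the 20-nt tag.

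Nearly all 19-nt counts came from NT-1. In that library 85.7% of the miR-181a counts and 95.1% of the miR-181b counts were of 19 nt. Tags of 18 and 19 nt together were 86.6% of miR-181a counts in NT-1, 2.85% to 9.48% in the other libraries of time course 1, and 1.14% to 6.22% in time course 2. For miR-181b they were 96.3% in NT-1, 3.32% to 16.7% in the others of time course 1, and 2.29% to 7.69% in time course 2. Over all miRNA counts, tags of 18 and 19 nt made up 51.4% in NT-1 and 0.910% to 16.9% in the other 11 libraries, so short tags were common in NT-1 outside the family too. What part this has in the level of the family in NT-1 was not tested. Between the time courses the share of 18 and 19 nt differed by -17.1 percentage points for miR-181a and -19.7 for miR-181b (lower in time course 2 at 6 of 6 time points, exact permutation p = 0.03125, adjusted p = 0.0491 over 11 measures), and by -3.47 and -4.90 points without the NT libraries, where 5 time points cannot give a p under 0.0625. With the untreated numbers exchanged the differences turned to 11.3 and 11.5 points (exact permutation p = 1).

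**Figure D3:**
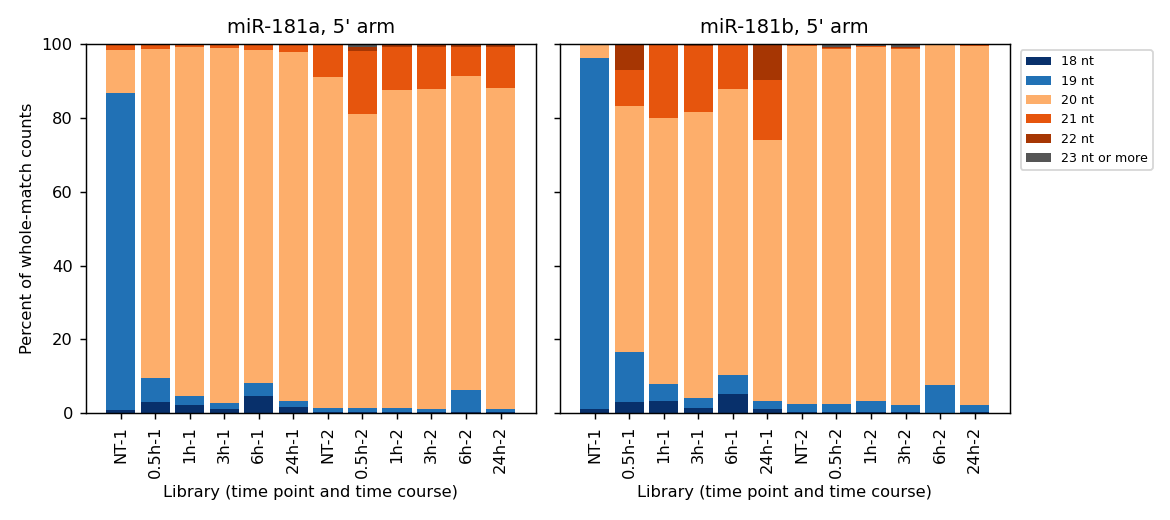
Stacked shares of tag lengths among the whole-match counts of the 5′ arms of miR-181a (left) and miR-181b (right), 1 bar per library. NT-1 is mostly 19 nt (85.7% and 95.1%), the other bars are mostly 20 nt, and tags of 21 nt have larger shares in time course 2 for miR-181a and after ECS in time course 1 for miR-181b.

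With only tags of 20 nt or more counted, the whole family was 1.13% of miRNA counts in NT-1 against 0.222% to 0.913% in the other libraries of time course 1 and 0.118% to 0.313% in time course 2. Among whole matches, lengths above 20 nt went opposite ways in the 2 main members. The 21-nt tag was 0.912% to 2.08% of the miR-181a counts in the ECS libraries of time course 1 and 7.93% to 17.3% in time course 2. For miR-181b it was 9.79% to 19.6% in the ECS libraries of time course 1 and 0 to 0.339% in time course 2. For miR-181a this direction was not kept with the first 18 nt: tags of 21 nt were 10.7% of its counts in the ECS libraries of time course 1 and 8.04% in time course 2, and 9.80% and 2.46% for miR-181b. Base 21, A in miR-181a and G in miR-181b, is the A21G difference given above.

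The start of the 5′ arm hardly varied. The annotated first base began 99.9% of all miR-181a counts and 99.5% of all miR-181b counts. The lowest libraries were at 99.1% for miR-181a (24 h, time course 1) and 97.3% for miR-181b (0.5 h, time course 1). The seed was thus read in the annotated frame in nearly every tag, while the 3′ end varied.

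The comparison between the time courses asks how much of the spread of these members goes with the course rather than with ECS. For the family its calls are a description, because the family was chosen by its levels in these same libraries. Across all arms, edgeR's quasi-likelihood test with time point as a covariate called 152 of 469 arms at an adjusted p under 0.05, which is 32.4%, with 58 of them lower in time course 2 (12.4% of the arms tested), and 45.8% of arms had an unadjusted p under 0.05. Scaling by total counts in place of TMM called 162 (34.5%), of which 113 were lower (24.1%), and it moved the median log2 fold change of all arms from 0.29 to -0.30. Of the 7 family arms tested, 3 were called, all lower in time course 2, 4 had an unadjusted p under 0.05, and the median log2 fold change was -1.57. With total counts 4 were called. With tags of 20 nt or more 3 were called, where 34.0% of 450 arms were called and 9.56% were called lower.

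These calls depended on the numbers of the untreated libraries. With the numbers exchanged, edgeR called 0 of 469 arms (16.2% had an unadjusted p under 0.05), and 2 of the 7 family arms had an unadjusted p under 0.05. Matched by the first 18 nt, 0 of 517 were then called (14.7% unadjusted), with 1 family arm at an unadjusted p under 0.05. Without the untreated libraries 31.1% of 453 arms were called, 14.1% lower in time course 2, and the 3 family arms called stayed called.

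Each of the 3 called arms held 4.42% or less of the family's counts, and the 3′ arm of miR-181c, with 0.205%, was not called. The 5′ arm of miR-181c fell by 4.09 on the log2 scale (SE 0.58, adjusted p = 0.00107, edgeR), the 3′ arm of miR-181b by 2.90 (SE 0.51, adjusted p = 0.00201) and the 3′ arm of miR-181a by 2.07 (SE 0.50, adjusted p = 0.00826). All 3 stayed called with each of the 12 libraries left out. This describes the fit and adds no support, since the choice of the family used the same counts. Without the untreated libraries the edgeR log2 fold changes were -3.81, -2.78 and -1.92 (adjusted p = 0.00183, 0.00360 and 0.0136), and with their numbers exchanged -3.09, -2.08 and -1.28 (adjusted p = 0.274, 0.296 and 0.402). The levels of the 3′ arm of miR-181b ran from 0.00707% to 0.0624% in time course 1 and from 0.000719% to 0.00310% in time course 2, without overlap. Those of the 3′ arm of miR-181a ran from 0.0287% to 0.156% and from 0.00416% to 0.0133%, also without overlap.

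The abundant arms depended on the matching. By whole matches the 5′ arm of miR-181b had a log2 fold change of -1.57 (SE 0.60, adjusted p = 0.0597, edgeR), that of miR-181d -0.59 (SE 0.57, adjusted p = 0.427) and that of miR-181a -0.27 (SE 0.63, adjusted p = 0.758). With the first 18 nt, 6 of the 7 arms were called, all lower in time course 2, where 32.9% of 517 arms were called and 12.2% were called lower. In that edgeR fit the 5′ arm of miR-181b fell by 3.02 (SE 0.47, adjusted p = 0.00149), that of miR-181a by 1.58 (SE 0.46, adjusted p = 0.0207) and that of miR-181d by 1.34 (SE 0.47, adjusted p = 0.0391). The 5′ arm of miR-181c fell by 2.25 in the same edgeR fit (SE 0.58, adjusted p = 0.0112), against a log2 fold change of -4.09 by whole matches. With the first 18 nt and no untreated libraries, 28.0% of 503 arms were called, 12.1% lower, and 5 of the 7 family arms. The 5′ arm of miR-181d was then not called (log2 fold change -1.28, adjusted p = 0.0848, edgeR), and those of miR-181b and miR-181a had -2.95 and -1.58 (adjusted p = 0.00442 and 0.0398, edgeR). By whole matches the 5′ arm of miR-181b was also called by edgeR with total counts (adjusted p = 0.0126) and by DESeq2 (adjusted p = 0.0102). With edgeR, no filter on low counts (adjusted p = 0.0362), tags of 1 miRNA name (0.0447) and no time point covariate (0.00762) called it too. Over the alternatives of either matching that kept the untreated numbers, its adjusted p ran from 0.00149 (first 18 nt) to 0.121. With the numbers exchanged it was 0.777 (whole matches) and 0.295 (first 18 nt). The 3′ arm of miR-181c was not called, with 0.45 (SE 0.67, adjusted p = 0.619).

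**Figure D4:**
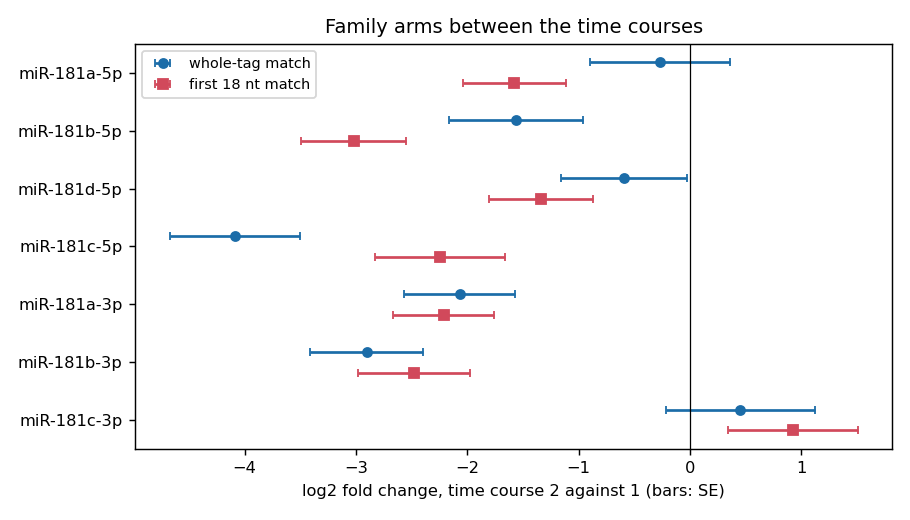
log2 fold change of the 7 tested family arms in time course 2 against time course 1, with bars of 1 SE, from edgeR with time point as a covariate. Whole matches (circles) place the 5′ arms of miR-181a and miR-181d at -0.27 and -0.59, and matching by the first 18 nt (squares) moves them to -1.58 and -1.34.

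The members also changed against each other. The ratio of miR-181b to miR-181a in the 5′ arms was 1.37 in NT-1 and 0.582 to 0.896 in the other libraries of time course 1, and 0.203 to 0.488 in time course 2. On the log2 scale it was -0.33 ± 0.44 (SD, n = 6) in time course 1 and -1.72 ± 0.45 (SD, n = 6) in time course 2. It was lower in time course 2 at 6 of 6 time points, by 1.39 on average (exact permutation test over 64 flips, two-sided p = 0.03125, the smallest they can give, adjusted p = 0.0491 over 11 measures). With the first 18 nt the difference was -1.44, again at 6 of 6 time points (exact permutation p = 0.03125), but with an adjusted p of 0.172. The adjusted p depends on how many of the 11 measures reach the smallest p, and fewer did with the first 18 nt. The adjusted values therefore do not rank the evidence under these matchings.

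By whole matches the ratio of miR-181c to miR-181a moved the most of the 3 ratios, and with the first 18 nt the least. It went from 7.75 to 75.4 miR-181c counts per 1000 of miR-181a in time course 1 to 1.07 to 4.70 in time course 2. Its log2 difference was -3.80 (6 of 6 time points, exact permutation p = 0.03125, adjusted p = 0.0491). With the first 18 nt it was -0.68 (5 of 6 time points, exact permutation p = 0.0625, adjusted p = 0.172). Of the first-18-nt counts of miR-181c-5p, 15.1% to 28.2% had no whole match in time course 1. In time course 2 these were 75.3% to 83.6%, leaving out the 6 h library with its 8 counts. For miR-181a this share was higher in the ECS libraries of time course 1 than in time course 2, so whole matches alone enlarge the difference. The ratio of miR-181d to miR-181b was 0.0815 in NT-1, 0.126 to 0.381 in the other libraries of time course 1 and 0.288 to 0.695 in time course 2. It was higher in time course 2 by 1.03 on the log2 scale (6 of 6 time points, exact permutation p = 0.03125, adjusted p = 0.0491), and by 1.64 with the first 18 nt (6 of 6, exact permutation p = 0.03125, adjusted p = 0.172). With the untreated numbers exchanged none of the 3 passed: the differences were -0.78, -2.87 and 0.43 in the order of the text (5 of 6 time points each, exact permutation p = 0.25, 0.0625 and 0.406). Without the untreated libraries they were -1.30, -4.00 and 0.88.

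**Figure D5:**
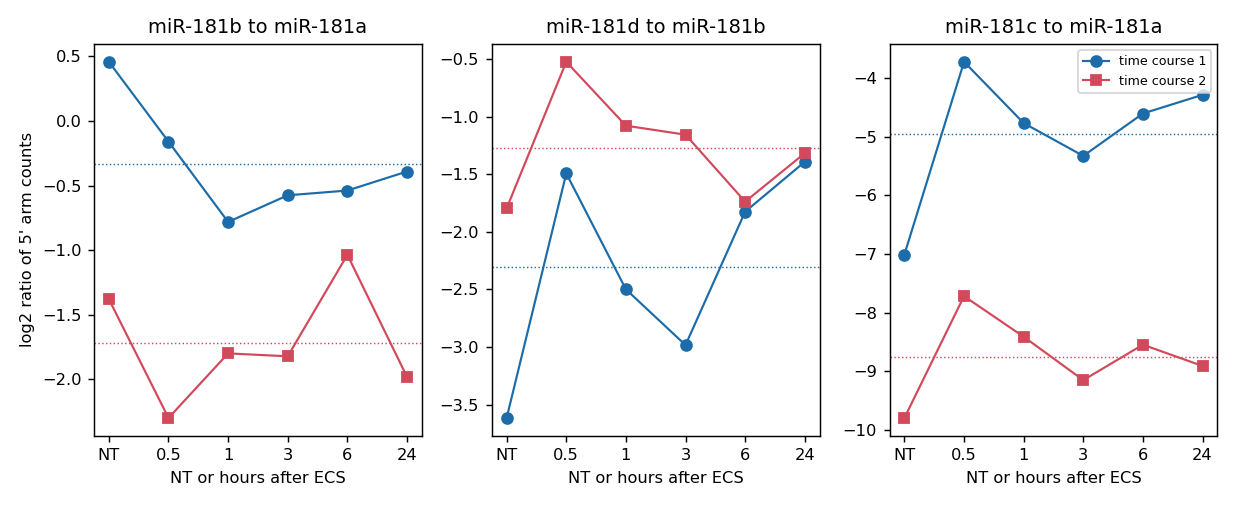
log2 ratios of 5′ arm counts between members in each library, by time after ECS, with the mean of each time course dotted. The ratio of miR-181b to miR-181a and that of miR-181c to miR-181a are lower in time course 2 at each of the 6 time points, and that of miR-181d to miR-181b is higher.

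The 3′ arm took a larger share of miR-181a in time course 1. It was 5.70% of miR-181a counts in NT-1 and 28.1%, 9.47%, 31.3%, 7.65% and 23.3% after ECS, against 5.02% in NT-2 and 4.51%, 7.29%, 6.88%, 5.57% and 2.11% after ECS in time course 2. The difference was -12.3 percentage points (6 of 6 time points, exact permutation p = 0.03125, adjusted p = 0.0491), but with the first 18 nt, which adds mostly 5′ arm counts, it shrank to -1.46 points. With the untreated numbers exchanged it was -12.1 points (5 of 6 time points, exact permutation p = 0.0625). For miR-181b the 3′ share was 1.73% to 16.5% in time course 1 and 1.55% to 8.27% in time course 2 (5 of 6 time points, exact permutation p = 0.0625, adjusted p = 0.0764), and with the first 18 nt the difference turned from -5.05 to 0.654 points.

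The 3′ arms told the loci apart. Of the 3′ counts that match 1 locus of miR-181a, 6347 came from Mir181a-1 on chromosome 1 and 738 from Mir181a-2 on chromosome 2. Of those of miR-181b, 2078 came from Mir181b-1 and 11 from Mir181b-2. The chromosome 1 pair thus gave most 3′ counts of both members, and no locus can be read from the 5′ arms, which are the same for both copies. Among the miR-181a counts the Mir181a-1 share was 88.1% to 97.8% in time course 1. In time course 2 it was 57.0% at 0.5 h (235 against 177 counts) and 81.6% to 100% in the other libraries, and the difference of -6.08 percentage points did not pass the test (exact permutation p = 0.406). Mir181c gave 328 counts of its 3′ arm, while Mir181d, 85 bp away, gave 1, although its 5′ arm had 10194 counts against 905 for miR-181c.

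The study's own question was whether ECS changes the miRNAs. Because of the batch effect between its time courses, the study held an accurate answer from this sequencing to be unlikely. It turned to TaqMan arrays and qRT-PCR, and named miR-181a among the miRNAs with more concordant results between them. Those measurements were not used here. None of the 7 family arms was called at any time against NT by edgeR, where 0 of 469 arms were called at each time. Of all arms, 1.92%, 0.426%, 2.13%, 1.92% and 1.49% had an unadjusted p under 0.05, from the earliest to the latest time. Nothing is read from these counts about the family, which was chosen by its level in NT-1. DESeq2 called 1 arm at 0.5 h and 2 at 3 h, none of them of this family. Among the 7 arms, miR-181b-5p had the most negative log2 fold changes, from -4.38 to -3.45 (SE 1.41 to 1.47) over the 5 times. For the 5′ arm of miR-181a they were -2.64 to -2.18 (SE 1.16 to 1.18). The median over the 7 arms ran from -1.83 to -1.56 on the log2 scale, and over all arms from -0.00203 at 1 h to 0.23 at 24 h. The family was chosen by its high level in NT-1, so this gap is a description and supports nothing.

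These estimates rested on NT-1. Without that library the 5′ arm of miR-181b stood between -0.46 and 0.48 and that of miR-181a between -0.44 and 0.00, so the direction was not kept at every time. With the first 18 nt, NT-1 included, they were -2.35 to -0.76 for miR-181b and -1.01 to 0.05 for miR-181a. In time course 2 alone, with 1 library a time, the 5 ECS libraries held 0.0344% to 0.0548% of miR-181b-5p against 0.0757% in NT-2, and miR-181a-5p was on both sides of NT-2.

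None of the 11 measures of composition passed between ECS and NT after adjustment. With 36 choices, a difference in only a few measures could not have reached an adjusted p under 0.05. No absence of a difference is read from this. The smallest p were those of the ratios of miR-181d to miR-181b (1.11 higher on the log2 scale after ECS, in 10 of 10 libraries) and of miR-181c to miR-181a (1.86 higher, in 10 of 10), each with an exact permutation p of 0.0278, the smallest that 36 choices can give, and an adjusted p of 0.153. Matched by the first 18 nt they were 0.59 (8 of 10, exact permutation p = 0.361) and 0.27 (6 of 10, exact permutation p = 0.417). The largest differences in percentage points were those of the 18 and 19 nt shares, -40.0 for miR-181a and -43.4 for miR-181b (exact permutation p = 0.0833, adjusted p = 0.183).

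Other arms were ranked by how closely their log2 CPM followed the summed 5′ arms of the family over the 12 libraries, among the 207 that reached 10 counts in each of them. The 5 highest Pearson r were those of miR-341-3p (0.79), miR-666-5p (0.76), miR-1298-3p (0.75), miR-879-5p (0.67) and miR-3106-5p (0.65). Without NT-1 they were 0.48, 0.46, 0.01, 0.37 and 0.01, so each was lower without that library, and with the first 18 nt they were 0.76, 0.95, 0.79, 0.97 and 0.79. The ranking depended on the matching. By the first 18 nt the 5 highest were miR-879-5p (0.97), miR-1983-3p (0.96), miR-666-5p (0.95), miR-872-5p (0.90) and miR-140-3p (0.88). The points share library, depth and time course. Within the family, the 5′ arms of miR-181a and miR-181b had r = 0.85 with NT-1 and 0.37 without it.

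Marker lists of other cell types were read beside the family. Vascular miRNAs (miR-143, miR-145a, miR-126a, all 3 detected) made up 6.30% to 14.5% of miRNA counts in time course 1 and 0.565% to 1.65% in time course 2, nearly all of it miR-143-3p. The member miR-126a-3p did not follow, with 0.00406% to 0.0137% in time course 1 and 0.00595% to 0.0221% in time course 2. Blood miRNAs (all 6 detected, mainly miR-142-5p and miR-16-5p) made up 0.134% to 1.16% and 0.0502% to 0.359%, and oligodendrocyte miRNAs (all 3 detected, mainly miR-219a-3p) 0.273% to 1.40% and 0.392% to 1.82%. Within the blood list, miR-142-5p was 0.0993% to 0.979% in time course 1 and 0.0157% to 0.232% in time course 2. For miR-16-5p the direction was the other, with 0.00432% to 0.0210% and 0.0204% to 0.109%. The brain-enriched list stood at 31.6% in NT-1, mostly miR-124a-3p with 26.2%, and at 11.4% in NT-2. The share of miR-143-3p and the family's first-18-nt share were both higher in every library of time course 1 than in any of time course 2. The part of one in the other was not tested.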

How the data were processed

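Hippocampal small RNA of 12 libraries was analysed. The authors trimmed the adapter from Genome Analyzer IIx reads with the miR-Intess pipeline and deposited, without alignment, raw read counts per distinct tag, none shorter than 18 nt (1897490 to 7657222 reads per library). The study's own assignment of reads to miRNAs was not used here. Tags were matched to GENCODE M21 (GRCm38) miRNA hairpins with no mismatch, and a tag of several miRNA names was split equally among them. The study's own genome build was older, so all coordinates are those of GRCm38. Mature sequences of all 4 members matched entries in RefSeq.

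Arms that reached 10 counts in 2 or more libraries were tested with edgeR 4.0.16 (quasi-likelihood, TMM, R 4.3.3) and Benjamini-Hochberg adjustment over 469 arms at a threshold of 0.05, with DESeq2 1.42.0 as an alternative. Each ECS time was compared with NT in 1 fit over the 6 groups, and the time courses were compared with time point as a covariate. For 11 measures of composition, exact two-sided permutation tests exchanged time courses within time points (64 flips) or the NT library within time courses (36 choices), with Benjamini-Hochberg adjustment over the 11. A pseudocount of 0.5 was added in ratios and none in locus shares. The edgeR and permutation steps were tested on simulated data. Computations otherwise used Python 3.11.15, pandas 2.3.3, scipy 1.17.1 and matplotlib 3.10.9.

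The replicate number was that of the study's time course. The study's list of library depths gives the untreated libraries the other way round from the GEO labels, whose numbers were kept. Fits with these numbers exchanged, and without these libraries, were added after seeing the data. Libraries of the same number deviated together in all 15 pairs of time points (mean r 0.52, lowest 0.31), so the numbers pair the libraries. No 2 libraries agreed within sampling noise. The members and the marker lists were chosen with earlier results of these data known. All arms of the family are named, together with the most abundant tags and the single-locus 3′ arms. The 5 other arms most like the family are named for each matching. Intervals are 95% Wilson intervals.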

Additional observations from a re-analysis of the deposited data

Results flagged for a closer look

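Of 36 sets of 6 libraries of 1 time course, 12 had a library set apart. Its gap to its nearest neighbour, divided by the range, exceeded Dixon's 95% critical value of 0.625. Independent, normally distributed values would give about 1.8, but these sets share libraries and tags, so the 12 cannot be judged against it. Where all other libraries of a set are equal, as for miR-181d-3p and the Mir181b-1 share below, any differing library is set apart. The levels in time course 1, by which the family was chosen, were left out. NT-1 was set apart for the share of 18 and 19 nt tags of miR-181a (86.6%) and miR-181b (96.3%). A low share of first-18-nt counts without a whole match also set it apart, at 31.9% for miR-181a, 32.3% for miR-181b and 22.4% for miR-181d. This share falls as the whole-match count rises. The family was chosen by that count, so the flags of NT-1 for this share support nothing.

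In time course 2 the 6 h library, the shallowest, was set apart for the share of 18 and 19 nt tags of miR-181a (6.22%) and miR-181b (7.69%), for the annotated start of miR-181b (100%) and for the share of miR-181d without a whole match (54.8%). The 0.5 h library of time course 2 was set apart for the 5′ arm of miR-181c (0.00105%, 41 counts) and the single read of the 3′ arm of miR-181d (2.57e-05%). The 1 h library of time course 1 was set apart for the Mir181b-1 share of 3′ counts (98.8%, with 100% in the other 5).

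Tags that match by their first 18 nt but not to their last base lie outside the whole-match counts. In time course 1 their median share of first-18-nt counts over the 5 ECS libraries was 90.04% for miR-181a, 91.8% for miR-181b and 80.1% for miR-181d, and every ECS library lay above NT-1 (31.9%, 32.3% and 22.4%). In time course 2 the median was 69.8% for miR-181a, with ECS libraries from 69.0% to 71.6% just above NT-2 (68.8%), while for miR-181b and miR-181d the ECS libraries lay on both sides of NT-2. The differences were not tested.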

How the results depend on the processing

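With the replicate block, 0 arms were called at each of the 5 ECS times, and the block changed no call. The log2 fold change of miR-181b-5p was then -3.64 to -2.99. That of miR-181c-5p at 0.5 h turned to 0.43 with the block and to 0.49 with the block and the first 18 nt, a pair of choices added after seeing the data, which also gave 0.038 at 1 h. DESeq2 called 1 arm at 0.5 h and 2 at 3 h, and no filter called 1 at 3 h. Between the time courses, 85 arms were called with at least 10 counts in every library, against 152. With the untreated numbers exchanged, added after seeing the data, 0 were called by whole matches and 0 by the first 18 nt. The 3 ratios between time courses were then -0.78, 0.43 and -2.87, the short tags 11.3 and 11.5 points, the start of miR-181a 0.368 points and its 3′ share -12.1 points. The log2 fold changes of miR-181a-5p and miR-181d-5p turned to 0.67 and 0.28, and with the block miR-181a-3p turned to -0.90 at 3 h. With no untreated libraries miR-181a-5p turned to 0.14.

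At 3 h miR-181a-3p turned to -0.75 with total counts, -0.19 with no filter, -0.25 with at least 10 counts in every library, -0.38 with tags of 1 name, -0.022 with the first 18 nt and -0.033 with the block too. With total counts miR-181c-3p turned to -0.38 at 3 h and -0.17 between time courses, and with the first 18 nt miR-181a-5p turned to 0.050 at 1 h.

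With the first 18 nt, the time course differences became -1.44 (miR-181b to miR-181a), 1.64 (miR-181d to miR-181b), -0.68 (miR-181c to miR-181a), -10.7 and -11.4 points (18 and 19 nt, miR-181a and miR-181b), -0.0583 and -0.185 points (annotated start), and -1.46 and 0.654 points (3′ share). The ECS differences of the 3′ share became -0.621 and -0.100 points. With tags of 20 nt or more, the ratios between time courses became -1.06, 0.73 and -3.92, and the ECS difference of the first ratio 0.23. The start of miR-181a became 0.215 points, that of miR-181b after ECS 0.355, the 3′ share of miR-181a -9.82 and that of miR-181b after ECS -1.72. A pseudocount of 1 gave -3.09 points for the Mir181b-1 share. With 18 to 20 nt as the short class the differences were -10.7 and 14.8 points. The summed share differed by -3.86 points between time courses with the first 18 nt, and after ECS by -0.928 points over all reads and -0.337 with tags of 20 nt or more. The causes of these changes were not tested.

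Leaving out 1 library, the number of arms called between time courses was 92 (without the 1 h library of time course 1) to 157. In the same order of times as above, miR-181a-3p ranged from -2.40 to 0.90, -2.41 to 0.80, -2.50 to 2.43, -3.16 to 0.28 and -3.14 to 0.77. For miR-181b-3p the ranges were -4.89 to 1.46, -3.54 to 1.55, -3.71 to 1.42, -2.21 to 2.29 and -3.75 to 0.77, and for miR-181c-5p -2.63 to 3.93, -3.82 to 4.37, -4.89 to 3.72, -4.82 to 4.49 and -3.45 to 3.69. miR-181c-3p ranged from -0.062 to 1.29 at 0.5 h, -0.71 to 1.22 at 1 h, -2.07 to 0.86 at 3 h and -0.48 to 0.15 at 6 h. miR-181b-5p ranged from -4.69 to 0.24 at 1 h, -4.9999 to 0.37 at 3 h and -4.52 to 0.48 at 6 h. miR-181d-5p ranged from -2.74 to 0.31 at 0.5 h, -2.99 to 0.040 at 1 h, -2.77 to 0.47 at 6 h and -2.66 to 0.39 at 24 h, and miR-181a-5p from -3.01 to 0.0029 at 3 h. Between time courses miR-181a-5p ranged from -0.84 to 0.22 and miR-181c-3p from -0.13 to 0.88.

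Leaving out 1 time point, the time course differences ranged from -1.57 to -1.24, 0.87 to 1.22 and -4.00 to -3.64 for the 3 ratios, -20.2 to -3.47 and -23.4 to -4.90 points for the short tags, -14.7 to -9.93 for the 3′ share and 0.280 to 0.450 for the start of miR-181a. With 5 time points the smallest p is 0.0625, so these say nothing of the call. After ECS the short tags ranged from -80.9 to 0.838 and -87.8 to 0.984 points, and the summed share from -6.13 to -0.0701. With 2 libraries a group, the depth of the rare arms (as few as 2 counts of miR-181c-5p) and the choice of matching limit what can be read.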

Other observations

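The 3′ arms started less uniformly than the 5′ arms. The annotated first base began 99.5% or more of the whole-match counts of each of the 4 main 5′ arms, with 99.9% for miR-181a, 99.5% for miR-181b, 99.6% for miR-181c and 99.8% for miR-181d. It began 97.8% of 7085 counts of miR-181a-3p, 98.1% of 2089 counts of miR-181b-3p and 89.0% of 328 counts of miR-181c-3p. These values were looked at after the others and carry no test.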
